A study of Mus musculus with 12 samples.

Results

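Heat shock chaperone genes were followed through the first hours after lipopolysaccharide (LPS) in the cerebral vessels of the mouse. The 10 genes were Hspa1a, Hspa1b, Hspa8, Hsph1, Dnajb1, Bag3, Hspb1, Hsp90aa1, Hspd1 and Hspe1. They were taken by symbol, each symbol matched 1 Ensembl gene of the GRCm38 annotation, and they are 10 of the 54119 genes in the data. All 10 passed the filter on low counts, with 366 fragments in the lowest library (Hspa1b in PBS) and 71080 in the highest (Hspa8 at 30 min).

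The libraries came from vessels isolated from the forebrain of wild-type C57BL6 mice aged 2 to 3 months with no other treatment named in the labels. LPS, the endotoxin of Gram-negative bacteria, was given once into the peritoneum at 10 mg/kg, and vessels were taken after 15 min, 30 min or 4 h, while control mice received phosphate buffered saline (PBS). Each of the 4 groups had 3 libraries, and each library pooled the vessels of 1 male and 1 female, so that a group drew on 6 mice and differences between single mice were not measured. The time between the PBS injection and collection is not given in the sources used here. Depth was 18.3 to 25.9 M fragments per library, and the SMART-Seq v4 and Nextera XT kits used do not mark the strand of an RNA. Markers of endothelium were detected in full (9 of 9 over 1 TPM in each group), as were those of pericytes (5 of 5) and smooth muscle (4 of 4), and markers of neurons, astrocytes, microglia and oligodendrocytes were also present, so the libraries hold RNA of the vessel wall together with that of other brain cells.

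Heat shock proteins are chaperones, proteins that bind unfolded chains and help them to fold, refold or reach a protease. HSP70 proteins hold and release exposed peptide stretches in a cycle driven by ATP, J-domain proteins of the HSP40 family deliver the client and start the cycle, and exchange factors such as HSP110 and the BAG proteins end it. HSP90 takes over late folding steps of kinases and receptors, small heat shock proteins hold unfolded chains without using ATP, and HSP60 with its lid HSP10 folds proteins inside mitochondria. Many of these genes are transcribed by heat shock factor 1 (HSF1), which under stress forms trimers and binds heat shock elements. These are runs of the unit GAA and its reverse complement TTC, the same unit read on the other strand. Inducible HSP70 genes have no introns, so their RNA needs no splicing, and in endothelium HSP27, the product of Hspb1, is known as a partner of actin.

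The upstream sequences are shown first, searched for the units of the elements that HSF1 is known to read. RefSeq promoter windows of GRCm38.p6, each 250 bases before and 50 after a start site, were listed for 8 of the 10 genes (11 windows, since 3 genes had a pair of start sites), and Hspa8 and Hsp90aa1 had none. They were searched for a pair of units facing each other (GAANNTTC) or facing away (TTCNNGAA), both of which read the same on either strand. The search also covered 3 units in a row (GAANNTTCNNGAA or TTCNNGAANNTTC, which are reverse complements of each other and contain the pairs). A pair lay in a window of 7 of the 8 genes, against 15.1% of all 32851 windows and 12.2% of those of the genes tested, and 3 units in a row lay in those of Hsph1, Hspd1 and Hspe1, against 0.603% of all windows. These 7 genes are not separate cases, because Hspa1a and Hspa1b are copies of each other and Hspd1 and Hspe1 share their element. The shares are of windows and the counts are of genes, so a gene with a pair of start sites had more than 1 window for a match. The stretches below are printed in the direction of the gene, with the units of each pair in capitals. For the first 3 genes they run from 150 bases before the start to the base next to it.
Hspa1a (chr17:34972157-34972306, minus strand): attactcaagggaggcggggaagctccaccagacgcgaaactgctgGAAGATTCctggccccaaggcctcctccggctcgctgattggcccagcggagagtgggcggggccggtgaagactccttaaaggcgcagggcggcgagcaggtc
Hspa1b (chr17:34959239-34959388, minus strand): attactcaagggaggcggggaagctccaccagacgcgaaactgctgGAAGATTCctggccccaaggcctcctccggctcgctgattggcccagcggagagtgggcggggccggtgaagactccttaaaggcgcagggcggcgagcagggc
Hspb1 (chr5:135887769-135887918, plus strand): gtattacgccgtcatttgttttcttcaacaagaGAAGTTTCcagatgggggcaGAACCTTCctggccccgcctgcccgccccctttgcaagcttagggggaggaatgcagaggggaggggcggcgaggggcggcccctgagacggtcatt
Hsph1 (chr5:149636356-149636375, minus strand): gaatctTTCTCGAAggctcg
Hspd1 (chr1:55088053-55088082, minus strand): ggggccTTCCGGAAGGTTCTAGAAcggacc
Hspe1 (chr1:55088053-55088082, plus strand): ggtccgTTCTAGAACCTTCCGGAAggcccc

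Upstream of Hspa1a and Hspa1b the pair stood at the same place, 104 bases before the start, and the 250 bases before the start of the pair of genes were 98.8% identical (247 of 250). Hspb1 held 2 pairs, 117 and 97 bases before its start. The stretches of Hspd1 and Hspe1 are the same 30 bases of chromosome 1 read from opposite strands, with 4 units in a row, which lie between the start listed for Hspe1 and the second start listed for Hspd1, and within the first exon of the annotated transcript Hspd1-202. The printed pair of Hsph1 lies within the first exon of Hsph1-206, and its 3 units in a row began 36 bases after the first listed start and are not shown. Bag3 had a pair in its window only after the start (from base 43, with the start itself as base 1), and neither window of Dnajb1 held these letters. A match describes the letters in the window and not binding.

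Levels were read in TPM, the share of all transcripts in a library, which are scaled for length and can be set side by side between genes. In PBS, Hspb1 stood highest at 901 ± 23.2 TPM (SD, n = 3) and Hspa8, the constitutive HSP70, next at 606 ± 9.98, and together they made up 46.7% and 31.4% of the summed TPM of the 10 genes. Hspa1b was lowest at 9.64 ± 1.13 TPM and Hspa1a next at 11.6 ± 0.159, with the division between these near-identical genes uncertain. The sum of the 10 genes was 1928 ± 22.3 TPM in PBS, 4171 ± 14.2 at 15 min, 7182 ± 104 at 30 min and 2335 ± 40.2 at 4 h, and the 4 groups did not overlap. Hspa1a and Hspa1b made up 0.6% and 0.5% of the sum in PBS and 12.01% and 10.45% of it at 30 min, while Hspb1 and Hspa8 made up 37.9% and 25.7% at 30 min and so still held most of the chaperone RNA.

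**Figure D1:**
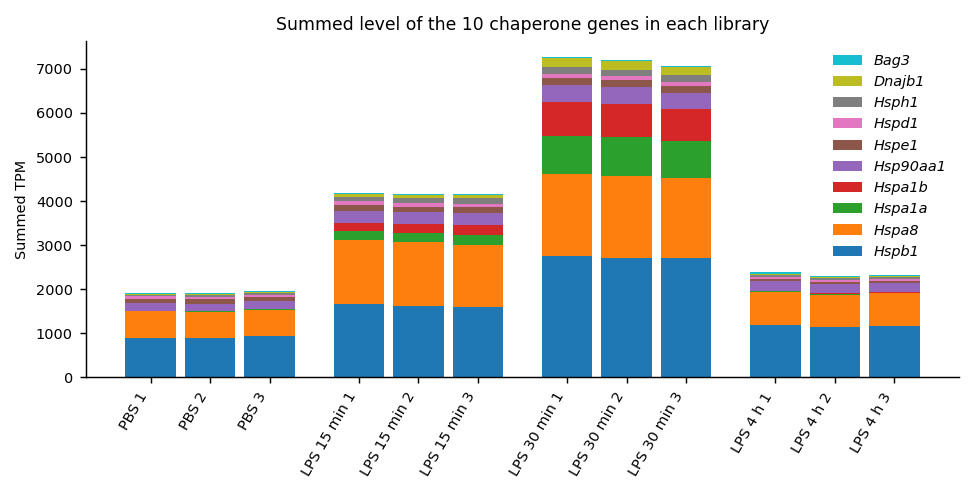
Summed TPM of the 10 chaperone genes (y axis) in each of the 12 libraries (x axis), with 1 colour per gene. The 3 libraries of LPS 30 min reach 7070.0 to 7276 TPM, against 1912 to 1954 in PBS, and the blocks of Hspa1a and Hspa1b are visible only at 15 and 30 min.

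For the comparisons between groups, fragments were scaled to CPM (counts at a common library size) by library total and by a TMM factor, which sets the bulk of the genes level, and edgeR tested each gene against a change of 1.5-fold, 0.585 on the log2 scale. A gene was called at an adjusted p below 0.05 over the 19150 genes tested. The smallest p of an exact permutation test over 3 and 3 libraries is 0.1, and the calls rest on a spread pooled over genes. At 15 min 7 of the 10 genes were called higher than in PBS, while 3.31% of all genes tested were. At 30 min 9 of 10 were called higher, against 3.78% of all genes, and at 4 h 8 of 10, against 19.0%. None was called lower at any time, where 0.872%, 0.799% and 13.8% of all genes were, in the order of the times. The median log2 change of the 10 was 1.07, 1.93 and 1.24 at the 3 times and that of all genes tested was 0, -0.01 and -0.01. Without the fold limit the quasi-likelihood test put 10, 10 and 9 of the 10 higher, with 20.4%, 19.7% and 34.9% of all genes. The 10 genes were selected with earlier results of these data known, so these counts describe them and do not test them as a list. Other cell types moved with the groups: 4 skeletal muscle markers summed to 129 to 145 TPM at 30 min against 29.4 to 49.2 in PBS, and 4 neutrophil markers to 556 to 580 TPM at 4 h against 11.7 to 16.5. Their part in the changes of the chaperone genes was not tested, and in whole vessels fewer cells of a type and less RNA per cell cannot be told apart.

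Between 15 and 30 min 6 of the 10 genes were called higher, with 2.69% of all genes, and from 30 min to 4 h 7 were called lower, with 11.8%. With library size alone these counts were 4 and 9, since that scaling moved the median of all genes by -0.14 between 15 and 30 min and by -0.54 from 30 min to 4 h. It called 1031 and 8848 of the 19150 genes tested, 37.2% and 21.7% of them higher. In CPM the 3 libraries of 1 group did not overlap with those of the other for any of the 10 genes in any of these 5 comparisons. The share of all genes without such overlap was not counted, so this describes the 10 genes only. It held even for Hspe1 at 4 h against PBS, whose change of 0.14 was not called. The 4 h values depend on the scaling. TMM factors averaged 1.17 in PBS, 1.15 at 15 min, 1.04 at 30 min and 0.717 at 4 h, and scaling by library size alone lowered the log2 changes at 4 h by 0.70 for all genes, and those at 30 min by 0.16. On that scale 7 of 10 and 9 of 10 genes were still called at 15 and 30 min, but only Hspa1b and Dnajb1 at 4 h. Of all genes tested 769, 881 and 10462 were called on that scale at the 3 times, 75.6%, 61.4% and 18.2% of them higher. With library size alone Hspd1 and Hspe1 at 4 h turned to values below PBS without a call (-0.34 and -0.57). TPM, which also sum to a fixed total, put Hspd1, Hspe1 and Bag3 at 4 h at 43.3, 56.5 and 25.0, against 62.2, 94.1 and 25.2 in PBS.

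**Figure D2:**
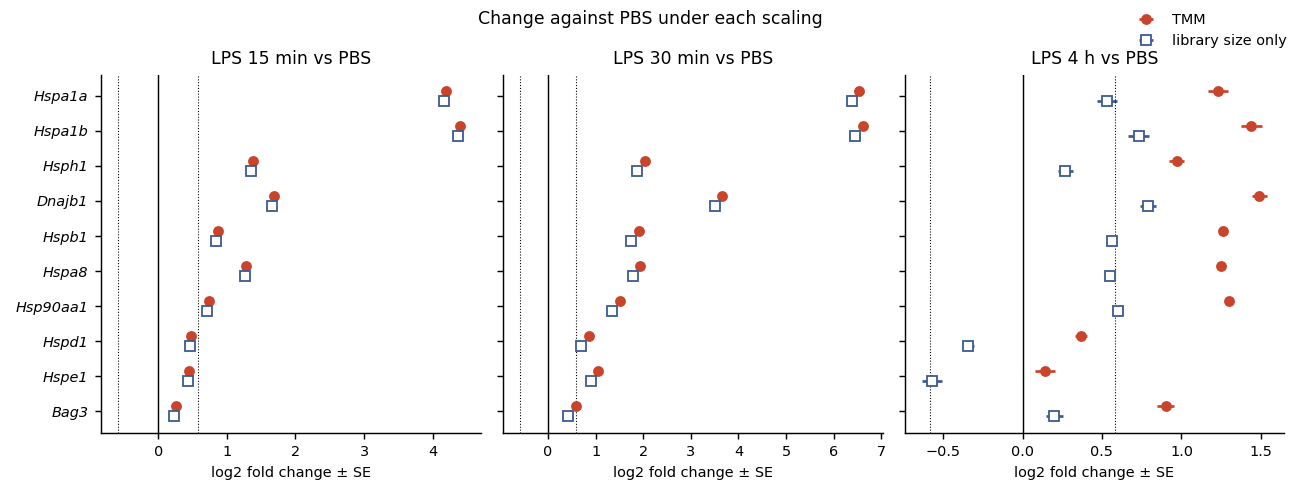
Log2 fold change against PBS with its SE (x axis) of each gene at each of the 3 times, with TMM scaling (filled circles) and library size alone (open squares). The dotted lines mark a change of 1.5-fold. Both scalings lie close together at 15 and 30 min and are 0.70 apart at 4 h.

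Hspa1a and Hspa1b encode the inducible HSP70, and their RNA had the largest changes of the 10 against PBS at 15 and 30 min. Hspa1a (chr17:34969190-34972156, minus strand) measured 19.9, 19.7 and 19.9 CPM in the PBS libraries, 343, 359 and 385 at 15 min, 1851, 1849 and 1834 at 30 min and 52.5, 41.8 and 45.97 at 4 h. Every library at 30 min was thus above every library at 15 min, and those at 4 h were back near PBS though still above it. Against PBS the log2 change was 4.19 (SE 0.0518) at 15 min, 6.54 (SE 0.0535) at 30 min, a 93.1-fold rise, and 1.23 (SE 0.0631) at 4 h (adjusted p = 3.13e-24, 9.14e-29 and 4.5e-10). Hspa1b (chr17:34956436-34959238, minus strand) measured 13.7, 15.5 and 17.5 CPM in PBS, 315, 322 and 348 at 15 min, 1548, 1529 and 1485 at 30 min and 43.1, 43.1 and 40.2 at 4 h. Its changes were 4.40 (SE 0.0527), 6.61 (SE 0.0537) and 1.44 (SE 0.0658). The step from 15 to 30 min was called for both (2.35 and 2.21 on the log2 scale), and from 30 min to 4 h Hspa1a fell by 5.31 and Hspa1b fell by 5.17. Among the 14588 genes with a mean of at least 50 fragments, Hspa1b and Hspa1a ranked 10 and 12 by their rise at 30 min and 9 and 8 by their fall from 30 min to 4 h.

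The transcripts of these neighbours are 99.2% identical over 2201 aligned bases, so how fragments were divided between them is uncertain. Summed as 1 gene they held 35.4 ± 1.91 CPM in PBS (n = 3 libraries), 691 ± 38.3 at 15 min, 3365 ± 41.7 at 30 min and 88.9 ± 5.81 at 4 h. The sum changed by 4.29 (SE 0.0442), 6.57 (SE 0.0472) and 1.33 (SE 0.0478) on the log2 scale, which differs little from either gene. Hspa1a made up 47.8% to 57.8% of the TPM of the pair over all 12 libraries. The overlapping gene Gm20481 on the opposite strand reached at most 0.267 TPM. With library size alone the 4 h changes were 0.53 for Hspa1a, not called, and 0.73 for Hspa1b (adjusted p = 0.00905, edgeR).

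Hspa8 encodes the constitutive HSP70, which also strips clathrin from vesicles. Hspa8 (chr9:40800984-40810087, plus strand) measured 794, 771 and 800.1 CPM in PBS, 1922, 1926 and 1902 at 15 min, 3028, 3059 and 3018 at 30 min and 1868, 1884 and 1880.0 at 4 h. Its log2 changes of 1.28 (SE 0.0189), 1.94 (SE 0.0192) and 1.25 (SE 0.0189) were all called (adjusted p = 1.85e-19, 2.03e-25 and 1.69e-20), and the steps between times as well, by 0.66 from 15 to 30 min (0.52 and not called with library size alone) and by -0.69 from 30 min to 4 h. With TMM the libraries at 15 min and 4 h lay close together, both above PBS and below 30 min, but with library size alone the changes at these times were 1.26 and 0.55, the second not called. In TPM the pair Hspa1a and Hspa1b stood at 3.502% ± 0.193 of Hspa8 in PBS (n = 3), 28.6% ± 1.82 at 15 min, 87.3% ± 0.563 at 30 min and 3.83% ± 0.226 at 4 h. The 4 h libraries lay close to those of PBS on this measure, and the groups at 15 and 30 min stood apart from both and from each other. Annotated copies of Hspa8 with at least 95% identity over 300 bases held at most 0.0532% of the joint TPM.

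**Figure D3:**
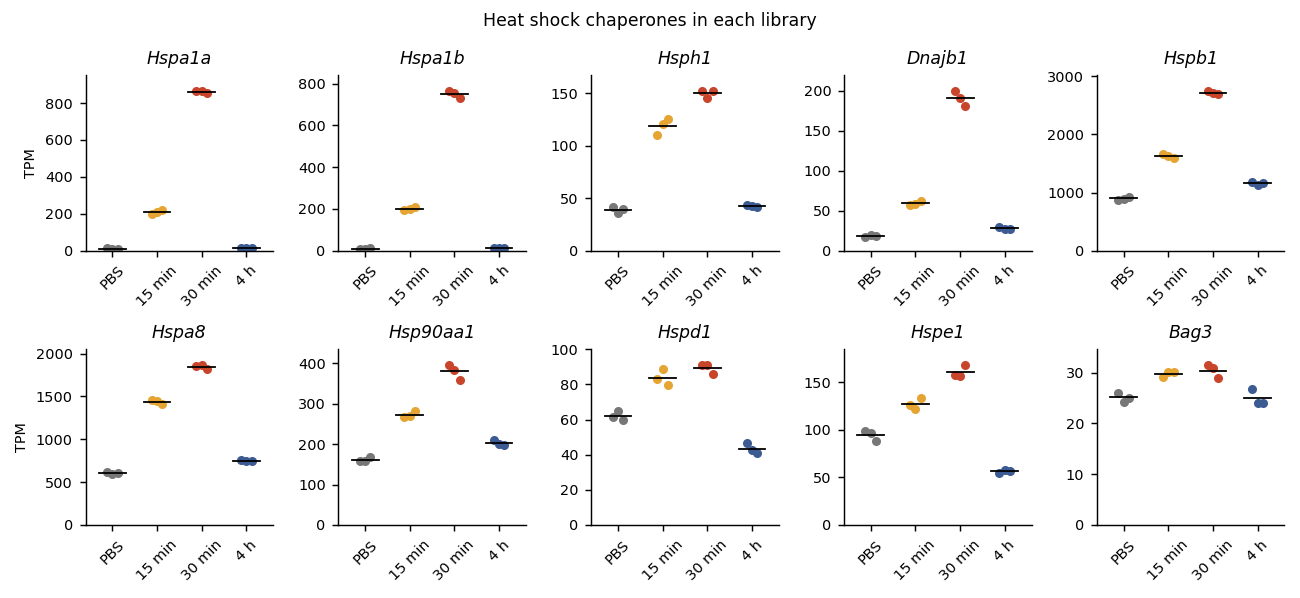
TPM (y axis, from 0) of each of the 10 chaperone genes in the 3 libraries of each group (points) with the mean (line). The mean at 30 min is the highest of the 4 in each panel. The libraries at 15 and 30 min overlap for Hspd1 and Bag3, and the TPM of Bag3 lie between 28.9 and 31.6 at these times.

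Partners of HSP70 were among the 10. Dnajb1, the J-domain protein HSP40 that hands clients to HSP70, showed the next largest rise. Dnajb1 (chr8:83608193-83612653, plus strand) measured 30.98, 34.2 and 33.5 CPM in PBS, 101, 104 and 111 at 15 min, 435, 419 and 399 at 30 min and 95.98, 90.5 and 92.01 at 4 h. It changed by 1.68 (SE 0.0458), 3.66 (SE 0.0443) (12.7-fold) and 1.49 (SE 0.0491) (adjusted p = 1.35e-15, 5.87e-25 and 7.32e-15). Between 15 and 30 min it rose by 1.98 and from 30 min to 4 h it fell by 2.17, and its 4 h call stood with library size alone (0.79, adjusted p = 8.43e-05, edgeR).

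Hsph1 encodes HSP105 of the HSP110 family, an exchange factor that releases ADP from HSP70. Hsph1 (chr5:149614287-149636376, minus strand) measured 63.5, 54.1 and 62.03 CPM in PBS, 151, 154 and 160.1 at 15 min, 245, 239.7 and 250.4 at 30 min and 116, 117 and 118 at 4 h. It changed by 1.38 (SE 0.0431), 2.03 (SE 0.0428) and 0.97 (SE 0.0461) (adjusted p = 1.75e-13, 7.34e-19 and 1.44e-08). From 15 to 30 min the groups did not overlap, but the change of 0.66 did not pass the threshold test (adjusted p = 0.157, edgeR) unless only these 2 groups were fitted (adjusted p = 0.0292). From 30 min to 4 h it fell by 1.06. Scaled by library size alone its 4 h change was 0.27 and not called.

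Bag3, a BAG-domain partner of HSP70 that steers clients to selective autophagy, had the smallest changes of the 10 at 15 and 30 min. Bag3 (chr7:128523616-128546981, plus strand) measured 38.2, 36.03 and 37.5 CPM in PBS, 43.4, 44.9 and 45.3 at 15 min, 57.95, 56.5 and 53.6 at 30 min and 74.2, 66.7 and 67.8 at 4 h. Each group lay above the one before without overlap. The changes of 0.26 (SE 0.0511) at 15 min and 0.59 (SE 0.0507) at 30 min did not pass the threshold of 1.5-fold (adjusted p = 1 for each, edgeR), though both passed the test without a fold limit (adjusted p = 0.000303 and 2.46e-09). At 4 h the change of 0.90 (SE 0.0520) was called (adjusted p = 1.89e-06), but with library size alone it was 0.20 and was not. Its difference between 4 h and 30 min was 0.31 with TMM and -0.23 with library size alone, neither called, so the order of these 2 times for Bag3 depended on the scaling.

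Hspb1, the small heat shock protein HSP27, was the most abundant of the 10 at each time in TPM. Hspb1 (chr5:135887919-135889563, plus strand) measured 364, 378 and 374 CPM in PBS, 689.8, 676 and 666 at 15 min, 1416, 1384 and 1386 at 30 min and 912, 854 and 907 at 4 h. The log2 changes were 0.87 (SE 0.0257), 1.91 (SE 0.0262) and 1.26 (SE 0.0261) (adjusted p = 2.28e-09, 1.77e-22 and 7.63e-18). From 15 to 30 min it rose by 1.04. The fall of 0.65 from 30 min to 4 h was called by edgeR (adjusted p = 0.0109) but not without the second LPS 4 h library (-0.62, adjusted p = 0.096), by DESeq2 (adjusted p = 0.206) or by limma on the deposited normalized counts (adjusted p = 0.137). Its 4 h change with library size alone was 0.56 and not called. The pseudogenes Hsp25-ps1 and Gm9817, near copies of Hspb1, held at most 0.617% of the joint TPM.

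Hsp90aa1 encodes the stress-inducible cytosolic HSP90. Hsp90aa1 (chr12:110690605-110702728, minus strand) measured 270.4, 264 and 280.3 CPM in PBS, 455, 449.6 and 452 at 15 min, 788, 767 and 763 at 30 min and 672, 669.8 and 664 at 4 h. The changes were 0.74 (SE 0.0245), 1.51 (SE 0.0246) and 1.30 (SE 0.0248) (adjusted p = 1.58e-05, 4.35e-20 and 9.59e-19), and it rose by 0.77 from 15 to 30 min (0.63 and not called with library size alone). Between 30 min and 4 h the difference was -0.21 and not called with TMM, where Hspa1a in the same libraries had fallen by 5.31. With library size alone it was -0.75 and called, and the 4 h change against PBS was 0.60 and not called.

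Hspd1 and Hspe1 encode the mitochondrial chaperonin HSP60 and its lid HSP10, and of the 9 genes called at 30 min they had the smallest changes. The genes lie head to head on chromosome 1 and overlap by 112 bases, over which reads of one cannot be told from reads of the other in libraries without strand. Hspd1 (chr1:55077835-55088243, minus strand) measured 76.6, 78.8 and 77.9 CPM in PBS, 106, 112 and 107 at 15 min, 144, 142 and 139 at 30 min and 104, 100 and 97.4 at 4 h. Hspe1 (chr1:55088132-55091307, plus strand) measured 32.8, 32.3 and 28.4, 42.2, 41.1 and 44.7, 63.5, 63.5 and 68.5 and 33.2, 35.03 and 34.5 CPM in the same order of groups. Both were highest at 30 min. At that time the changes against PBS were called, with 0.86 (SE 0.0350) for Hspd1 (adjusted p = 3.34e-07) and 1.06 (SE 0.0569) for Hspe1 (adjusted p = 1.2e-07). At 15 min they were 0.48 and 0.45 and not called. At 4 h they were 0.37 and 0.14, not called, and had the opposite sign with library size alone. Hspe1 fell by 0.93 from 30 min to 4 h (adjusted p = 6.66e-06, edgeR) and the change of -0.49 of Hspd1 was not called, but with library size alone it was -1.03 and called (adjusted p = 1.27e-11). In TPM the ratio of Hspd1 to Hspe1 was 0.662 ± 0.0318 in PBS, 0.662 ± 0.0654 at 15 min, 0.558 ± 0.0396 at 30 min and 0.768 ± 0.0687 at 4 h (SD, n = 3). Copies of these genes held at most 0.0701% and 1.31% of the joint TPM.

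Summed per gene, transcripts annotated as retained introns had their highest mean share at 15 min, when the genes themselves were below their level at 30 min. Single transcripts of Hsph1 did not all follow this. Salmon divides the fragments of a gene among its annotated transcripts, so these shares are estimates, and they were not tested. The annotation class does not always mean a whole intron of the main transcript, since the exons of Hspe1-202 hold none of them and only 1 of the 3 such transcripts of Hsph1 holds 1. For Hspa8 the 4 transcripts annotated as retained introns made up 1.18%, 1.45% and 1.09% of the TPM of the gene in the PBS libraries, 3.57%, 3.71% and 3.59% at 15 min, 3.08%, 3.02% and 2.85% at 30 min, and 1.48%, 1.82% and 1.88% at 4 h. The 4 groups did not overlap. Most of it was Hspa8-208, whose exons span 5 of the 8 introns of the main transcript and which went from 1.02% ± 0.067 (n = 3) to 2.88% ± 0.059 at 15 min. For Hspb1, the 2-exon transcript Hspb1-202, which keeps 1 of the 2 introns of the main transcript (128 bases), made up 0.44% ± 0.188 of the gene in PBS, 5.91% ± 0.374 at 15 min, 2.94% ± 0.251 at 30 min and 1.30% ± 0.185 at 4 h, again without overlap. In Hspe1 the retained-intron share was 1.76% ± 0.487, 3.84% ± 0.768, 3.03% ± 0.534 and 1.75% ± 0.567, and the PBS and 4 h libraries overlapped, as did those at 15 and 30 min. In Hsph1 it was 33.0% ± 4.70, 47.4% ± 5.98, 45.01% ± 1.06 and 37.8% ± 1.60, with overlap between 15 and 30 min and between PBS and 4 h. Of its transcripts, Hsph1-208, which holds no whole intron of the main one, averaged 29.3%, 39.7%, 35.8% and 33.3%. Hsph1-204, which holds 1, was highest at 30 min (1.62%, 2.34%, 3.00% and 1.23%), as was Hsph1-210 (2.05%, 5.30%, 6.22% and 3.28%). In Hsp90aa1 it scattered from 1.11% to 11.9% over the libraries, and the 3 groups before 4 h overlapped. Of Dnajb1, the shorter coding transcript Dnajb1-202 made up 0.805% of the TPM in PBS (0% to 1.98%), 8.00% at 15 min (7.49% to 8.86%), 2.46% at 30 min (2.18% to 2.82%) and 2.05% at 4 h (0.238% to 3.18%), and the 15 min libraries stood clear of all others. The change of Hsph1 at 15 min was 1.59 in the normalized table, which adjusts for transcript length, and 1.38 in fragments.

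**Figure D4:**
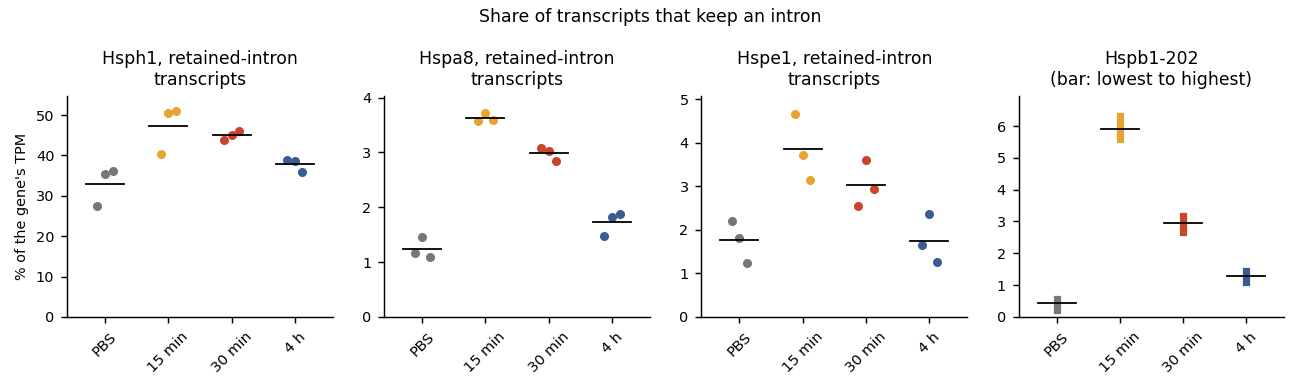
Share of the TPM of a gene (y axis, percent, from 0) in transcripts annotated as retained introns, for Hsph1, Hspa8 and Hspe1 in each library (points) with the group mean (line), and in Hspb1-202 (bar from the lowest to the highest of 3 libraries, line at the mean). The means are highest at 15 min in each panel, for example 5.91% for Hspb1-202 against 0.44% in PBS.

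Other genes of the chaperone network are given as lists chosen by function, with earlier results of these data known. Beside each count stands the median log2 change of the list, where the median of all genes tested was 0, -0.01 and -0.01 at the 3 times. The counts are to be read beside all genes tested, of which 3.31%, 3.78% and 19.0% were called higher at these times and 0.872%, 0.799% and 13.8% lower. The heat shock factors and their modulators (Hsf1, Hsf2, Hsf4, Hsf5, Hsbp1 and Hsf2bp) gave no call at 15 or 30 min among 6 tested (medians 0.22 and 0.06). Hsf1 itself stood at 60.7 ± 1.497 CPM in PBS, 73.3 ± 3.41 at 15 min, 66.6 ± 2.46 at 30 min and 62.4 ± 3.37 at 4 h (n = 3). Its changes with TMM of 0.27, 0.13 and 0.04 were not called. With library size alone the 4 h change of Hsf1 was -0.67 and called lower (adjusted p = 0.0331, edgeR). At 4 h (median -0.34) Hsf4 was lower by either scaling (-0.99 with TMM and -1.70 with library size), and Hsf2bp, named after its values were seen because its mean of 16.8 fragments is below the limit for named genes, was higher.

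The other cytosolic HSP70, HSP110 and HSP40 genes gave 2 higher of 21 at 15 min (median 0.12), 5 higher at 30 min (median 0.20), and 5 higher with 1 lower at 4 h (median 0.34). At 4 h 19.0% of all genes tested were called higher and 13.8% lower. Dnaja1, a J-domain partner of HSP70, rose at 15 and 30 min (1.36 and 1.97), Dnajb5 at 15 min (1.07), and Dnajb4, Hspa2 and Dnaja4 at 30 min (1.36, 0.97 and 0.94). At 4 h Dnaja2 and Dnajb6 were higher by 1.74 and 1.72 (1.03 and 1.02 and still called with library size alone), and Dnajb4 by 0.97 (0.26 and not called). Hspa12b, a distant HSP70 relative of endothelium, fell by 4.48 at 4 h, from 335 ± 10.5 CPM in PBS, 333 ± 5.19 at 15 min and 337 ± 3.75 at 30 min to 15.1 ± 2.29 (n = 3).

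Of the 10 exchange factors and co-chaperones of HSP70 (medians -0.03, 0.07 and -0.06) Stip1, the adaptor HOP between HSP70 and HSP90, was the 1 gene called at each time (0.79, 1.15 and 0.87, the last being 0.16 and not called with library size alone). Among the 12 genes of HSP90 and its co-chaperones (medians 0.35, 0.51 and 0.10) 2 were higher at 15 min, Ahsa2 by 0.99 and Chordc1 by 0.78, and 6 at 30 min. The largest of these changes were those of Hsp90ab1, the constitutive HSP90, with 1.15, Ahsa2 with 1.03, Chordc1 with 0.89 and Ptges3, the co-chaperone p23, with 0.87. At 4 h Hsp90ab1 stood at 0.30 with TMM and -0.41 with library size, neither called. Ptges3 was higher at 4 h (1.1, but 0.40 and not called with library size alone) and Fkbp4 and Aarsd1 were lower by either scaling (-0.93 and -0.77 with TMM). Of 7 other small heat shock proteins 6 passed the filter, Hspb3 being left out (medians -0.29, 0.18 and 0.22). None was called at 15 min, Hspb8, which works together with BAG3, was higher at 30 min (1.08), and at 4 h Hspb6 and Hspb8 were higher (1.98 and 1.07) and Hspb2 lower (-1.20), Hspb8 not with library size alone.

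Of 10 other mitochondrial chaperones and proteases none was called at 15 or 30 min (medians -0.02 and -0.01), where Hspd1 and Hspe1 were called at 30 min. At 4 h (median 0.20) Hspa9, the mitochondrial HSP70, was higher (1.01, but 0.31 and not called with library size alone) and Hscb lower (-2.40). None of the 13 genes of the cytosolic chaperonin and prefoldin was called at 15 or 30 min either (medians 0.21 and 0.40). At 4 h (median 0.48) 6 were higher, with Cct3 (1.79), Tcp1 (1.24), Cct2 (1.06) and Cct6a (0.93) first, and of these 4 Cct3 alone kept its call with library size. Of 7 other genes known as targets of heat shock factors (medians 0.30, 0.78 and 0.56) none was called at 15 min and 5 were higher at 30 min. The largest changes were those of Ier5 (1.52), Zfand2a (0.91), Dedd2 (0.79) and Serpinh1 (0.78), and with library size alone only Ier5 and Zfand2a stayed called. At 4 h Ier5 (2.71) and Zfand2a (0.76) were higher, Zfand2a not with library size alone. Among the 14 chaperones of the endoplasmic reticulum (medians -0.04, 0.26 and 0.18) none was called at 15 min. Manf (0.76) and Hspa5 (0.68), which encodes BiP, the HSP70 of the reticulum, were called at 30 min and neither with library size alone, and at 4 h Hspa5 (1.45) and Manf (0.76) were higher, of which Hspa5 alone kept its call.

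With library size alone the 4 h counts turned for most lists, as did those of all genes. On that scale 10462 of the 19150 genes tested were called at 4 h, 18.2% of them higher and the rest lower. The exchange factors then gave 0 higher and 7 lower, the HSP90 list 0 and 6, the endoplasmic reticulum 1 and 5, the heat shock factors 1 and 4, the other cytosolic genes 2 and 6, the mitochondrial list 0 and 3, the chaperonin list 1 and 2, the small heat shock proteins 1 and 2, and the targets of heat shock factors 2 and 1. At 15 min the counts of each list were the same by either scaling.

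**Figure D5:**
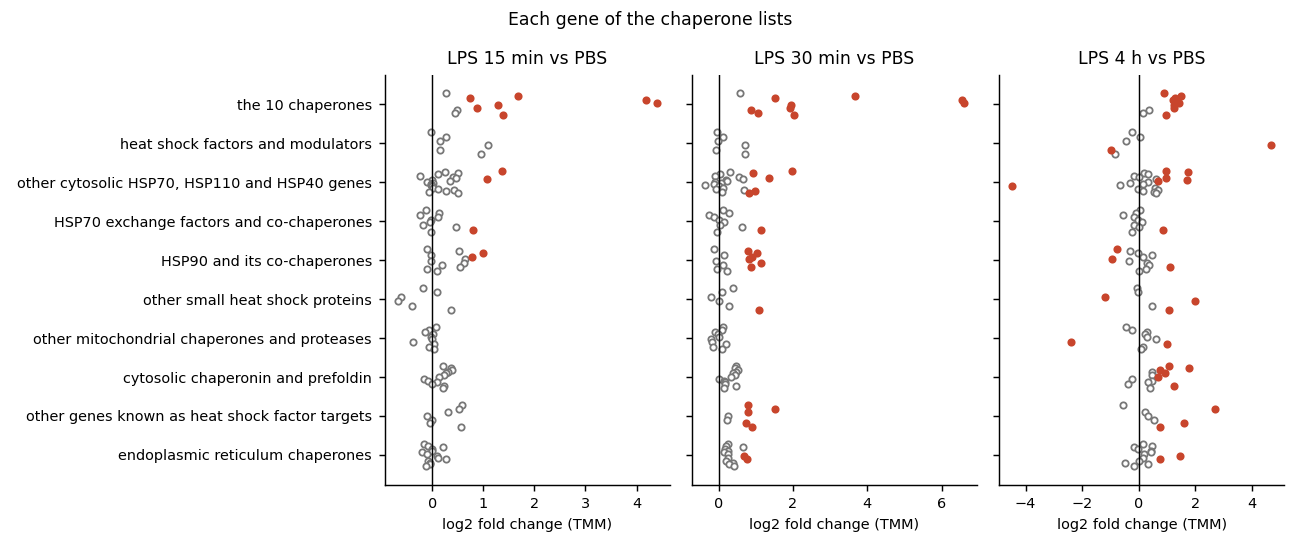
Log2 fold change against PBS with TMM scaling (x axis) of each gene tested in each list (rows) at the 3 times, with genes called in red and the others open. Of the 10 chaperones 7, 9 and 8 are in red, and every list has at least 1 call at 4 h on this scale, where 32.8% of all genes tested were called. With library size alone 2 of the 10 chaperones were called at 4 h, both higher, and 10462 of the 19150 genes tested, 18.2% of them higher.

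To place the pattern of a member among all genes, the distance between the 3 log2 changes against PBS was computed over 14578 other genes with a mean of at least 50 fragments. Nearest to Hspa1a was Fosb, an AP-1 subunit, at a distance of 2.06 (changes of 3.05, 6.12 and 2.89), then the nuclear receptor Nr4a1 (2.19), the matrix protein gene Ccn1 (2.59), Egr3 (2.64) and Fos (2.90). Each of these 5 had a smaller change than Hspa1a at 15 and 30 min and a larger one at 4 h. Nearest to Dnajb1 were Nfkbid (0.87), Ier2 (1.02), Jun (1.02), Ppp1r15a (1.22) and Aqp4 (1.44). The place of Aqp4 is uncertain, because its change at 30 min was 2.65 in fragments and 0.25 in the length-adjusted table. Nearest to Hspd1 were Pask (0.08), Myo16 (0.14), Usp2 (0.14), Jmjd6 (0.14) and Lpar3 (0.15). The places of Pask and Usp2 are uncertain as well, since their changes at 30 min were 0.83 and 0.99 in fragments and 1.14 and 0.79 in the length-adjusted table. The changes share the PBS libraries, and the distances are a description over 4 groups.

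The marker lists of the other cell types are given in full as summed TPM. The 4 skeletal muscle markers summed to 27.4 to 30.6 at 15 min and 11.3 to 14.9 at 4 h, below their level at 30 min, with Ckm at 46.5, Mylpf at 45.2 and Acta1 at 39.8 TPM at 30 min, so muscle RNA was highest in the group in which the mean TPM of each of the 10 chaperone genes was highest. The sum of 4 neuron markers was highest at 15 min, at 283 to 287 TPM against 184 to 193 in PBS, 141 to 146 at 30 min and 74.6 to 78.0 at 4 h. The sum of 4 neutrophil markers was 4.05 to 8.57 TPM at 15 min and 15.6 to 23.8 at 30 min, while Ly6g was at 0 in 8 of the 12 libraries. The sum of 9 endothelial markers went from 9998 to 10200 TPM in PBS to 3917 to 3964 at 4 h, though Cdh5 alone of them rose (200 to 417 TPM). From PBS to 4 h the mean sum of 5 pericyte markers went from 2404 to 1115, that of 4 smooth muscle markers from 1854 to 967, that of 3 fibroblast markers from 158 to 82.3 and that of 5 microglia markers from 55.8 to 20.8. TPM sum to a fixed total, so the size of these falls at 4 h depends on the scaling. The sum of 4 astrocyte markers was 187 in PBS, 109 at 15 min, 136 at 30 min and 143 at 4 h, that of 3 oligodendrocyte markers 214, 177, 181 and 149, and that of 3 markers of perivascular macrophages 27.1, 24.2, 28.3 and 23.2. No test of the chaperone genes took these sums into account.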

How the data were processed

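RNA-seq of mouse cerebral vessels was measured in 12 libraries (4 groups of 3, grouped by the treatment in the labels). The authors quantified reads with Salmon 1.2.1 against GRCm38.p6 and deposited, per transcript, estimated counts of fragments and TPM, and a gene table of normalized signal (counts divided by DESeq2 size factors, adjusted for transcript length).

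Of 140948 transcripts, 139852 were joined to GENCODE M21 and summed to 54119 genes, and between 0.482% and 0.85% of the fragments of a library were not joined. The gene table holds 12 columns numbered by sample. Each correlated best with the library of the same number. Sums were rounded to whole counts, filtered with filterByExpr (count minimum 10, total minimum 15, proportion 0.7), TMM-scaled and fitted over all 12 libraries in edgeR 4.0.16 (R 4.3.3). glmTreat tested against 1.5-fold, with Benjamini-Hochberg adjustment over 19150 genes and a threshold of 0.05. SEs were taken as the ratio of the log2 change to the root of its F statistic. The fit was tested on simulated data. Libraries of a group differed by more than counting noise (variance ratio 2.20 to 2.95), and because the labels do not say that the pools came from separate days, p-values measure the spread between pools.

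Alternatives were DESeq2 1.42.0, limma 3.58.1 on the log2 of the table plus 1 or 10, RLE and library-size scaling, a length offset, no filter, no fold limit, only the groups compared, a replicate block, and each library left out. Copies were found with BLAST 2.17.0 (95% identity over 300 bases). Promoter windows and genes came from RefSeq and GENCODE tables of the same build, and coordinates are 1-based.

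The members and lists were chosen with earlier results of these data known. The values of 1 gene named by the rule below are not reported here. Named beside the members are, of each list, the 2 to 4 genes with the largest change among those called with at least 50 fragments on average. Also named are the 5 genes nearest to Hspa1a, Dnajb1 and Hspd1, with the members left out. The numbers of the replicates did not pair the samples (correlations of deviations -0.101 to 0.093 in 18 pairs).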

Additional observations from a re-analysis of the deposited data

Results flagged for a closer look

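The effects at different times were set against each other directly, by contrasts between the LPS groups in the same edgeR fit, and 13 of these differences passed the threshold of 1.5-fold. Of all genes tested, 2.69% were called higher between 15 and 30 min, and 11.8% were called lower between 30 min and 4 h. Between 15 and 30 min the log2 change was 2.35 for Hspa1a, 2.21 for Hspa1b, 1.98 for Dnajb1, 1.04 for Hspb1, 0.77 for Hsp90aa1 and 0.66 for Hspa8, the last 2 not called when scaled by library size alone. All 3 libraries at 30 min lay above all 3 at 15 min for each of these genes.

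Between 30 min and 4 h the change was -5.31 for Hspa1a, -5.17 for Hspa1b, -2.17 for Dnajb1, -1.06 for Hsph1, -0.93 for Hspe1, -0.69 for Hspa8 and -0.65 for Hspb1. All 3 libraries at 4 h lay below all 3 at 30 min for each of these genes. The share of all genes without overlap was not counted in either contrast. The value of Hspb1 stands close to the threshold and depended on the tool and on 1 library. For Hsp90aa1 the difference from 30 min to 4 h was -0.21 and not called, but with library size alone it was -0.75 and called. Hspd1, at -0.49 and not called, was likewise called with library size alone, at -1.03.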

How the results depend on the processing

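Over 800 combinations of gene, comparison and alternative, 773 kept their side of the threshold, 12 lost a call, 15 gained one and no called change turned. The 773 include changes not called on either side that turned in direction. With library size alone these were Hspd1 and Hspe1 at 4 h against PBS and Bag3 between 30 min and 4 h. Of the 12 lost calls, 8 came from scaling by library size alone, which took the chaperone genes called at 4 h from 8 to 2, and all genes called from 6273 to 10462 at 4 h against PBS and from 5484 to 8848 at 4 h against 30 min. That scaling moved the median of all genes by -0.70 at 4 h, and the share of calls that were higher there from 58.0% to 18.2%, against 82.6% to 61.4% at 30 min and 79.1% to 75.6% at 15 min. Between 15 and 30 min the share went from 57.9% to 37.2%, and between 30 min and 4 h from 58.9% to 21.7%. The other 4 lost calls are the change of Hspb1 from 30 min to 4 h under DESeq2, both limma settings (adjusted p = 0.137 and 0.158) and without LPS 4 h replicate 2. Without a fold limit, which tests a smaller change, the genes called were 7393 at 15 min, 7066 at 30 min, 13124 at 4 h, 7153 between 15 and 30 min (with 10 chaperone genes) and 12498 between 30 min and 4 h. With limma on the table plus 1 they were 406 at 15 min, 531 at 30 min and 443 between them, and plus 10 they were 385, 497 and 413, where edgeR called 800, 877 and 891. RLE factors, no filter and the length offset changed no call of a member.

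With each library left out, members called stayed at 7 (15 min), 9 (30 min), 8 (4 h) and 6 (30 against 15 min), and were 6 to 7 for 4 h against 30 min. Genes called were 692 to 741, 770.0 to 821, 5997 to 6138, 760.0 to 814 and 5219 to 5340.

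The replicate block changed none of 50 calls of members, and the genes called with it were 776, 856, 6235, 876 and 5422. The numbers did not pair the samples, as none of 18 correlations was over 0.1. With 366 fragments or more of each member in each library, depth did not limit detection of the 10 genes.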

Other observations

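Coding transcripts of 2 members also changed in share, with values given as a description and no test. Hspa8-202 made up 26.4% of the TPM of Hspa8 in PBS, 20.2% at 15 min, 16.0% at 30 min and 12.4% at 4 h (means of 3 libraries). Hsp90aa1-202 made up 30.8% of Hsp90aa1 in PBS, 31.6% at 15 min, 36.6% at 30 min and 44.8% at 4 h, while Hsp90aa1-201 went from 64.0% in PBS to 53.1% at 4 h. These are Salmon's estimates for transcripts that share most of their exons.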
